A study of Mus musculus with 6 samples.

Results

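The 10 genes described here are the corticosteroid receptor genes Nr3c1 and Nr3c2 and 8 genes known as glucocorticoid targets, Fkbp5, Sgk1, Tsc22d3, Hif3a, Ddit4, Cdkn1a, Pdk4 and Errfi1. They were chosen by name, with earlier results of these data known, and all 10 had a row among the 14250 rows of the deposited table. Polyadenylated RNA was counted in the hand-dissected anterior cingulate cortex (ACC), a frontal midline region, of C57BL/6 mice perfused under isoflurane and pentobarbital. The LPS group received lipopolysaccharide, a component of the bacterial outer membrane, by intraperitoneal injection at 50 µg per kg on postnatal day 14. The saline group received pyrogen-free saline on the same day, and the tissue of both groups was taken on postnatal day 45. Each group held 3 mice with 1 library each, and no transgene or mutant allele is named in the labels. The study concerned inflammation early in life and depression-like behaviour in adolescence.

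Glucocorticoids, mainly corticosterone in mice, cross into the brain and bind 2 related receptors that act as transcription factors. The mineralocorticoid receptor (Nr3c2) binds the hormone tightly and is occupied at resting levels, while the glucocorticoid receptor (Nr3c1) fills as levels rise with stress and over the day. In the cytoplasm the glucocorticoid receptor is held by HSP90 and co-chaperones, among them FKBP51, the product of Fkbp5, which lowers its affinity for the hormone. Since the receptor also induces Fkbp5, the pair forms a short feedback loop. Bound receptor moves to the nucleus and pairs up on DNA at an inverted repeat of a short half-site.

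Promoter sequences are shown because the members share this receptor as a regulator. RefSeq's GRCm38.p6 table held 18 windows for 9 of the 10 members, each running from 250 bases before to 50 after a start site. They were searched for the half-site AGAACA on both strands, and for 2 half-sites facing each other with 3 bases between, in which each arm also counts as a half-site. The half-site was in 4 of the 18 windows (22.2%), against 6233 of all 32851 windows (19%). The 4 windows belonged to Sgk1 and Tsc22d3. The inverted repeat was in 3 of the 32851 windows (0.00913%), and 1 of these 3 belonged to Sgk1. That window lies at chr10:21993640-21993939 on the plus strand, and the repeat spans positions 21993701 to 21993715, which is 965 bases upstream of the most downstream Sgk1 start site in the table. The Tsc22d3 window lies at chrX:140600473-140600772 on the minus strand. Capitals mark half-sites on either strand.
Sgk1: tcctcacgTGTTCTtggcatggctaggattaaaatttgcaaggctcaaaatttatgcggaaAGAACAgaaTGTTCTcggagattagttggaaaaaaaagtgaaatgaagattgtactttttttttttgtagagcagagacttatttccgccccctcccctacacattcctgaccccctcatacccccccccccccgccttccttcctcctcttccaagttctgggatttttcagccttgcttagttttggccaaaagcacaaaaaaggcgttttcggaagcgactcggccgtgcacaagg
Tsc22d3: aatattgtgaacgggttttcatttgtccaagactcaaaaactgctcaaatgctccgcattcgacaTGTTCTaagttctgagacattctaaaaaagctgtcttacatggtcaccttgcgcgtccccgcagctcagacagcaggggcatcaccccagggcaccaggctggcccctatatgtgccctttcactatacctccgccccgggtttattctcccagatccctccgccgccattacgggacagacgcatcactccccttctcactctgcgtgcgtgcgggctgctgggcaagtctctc
A match is a string of letters and not evidence of binding, and most known receptor sites lie outside such short windows. The windows of Fkbp5, Nr3c2, Hif3a, Ddit4, Cdkn1a, Pdk4 and Errfi1 did not hold these letters.

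The libraries held 36168687 to 41270737 counts, and CPM values were scaled to library size with TMM factors of 0.971 to 1.02. Markers fixed for ACC tissue were found: all 8 excitatory neuron and all 7 inhibitory neuron markers had a row, and no marker with a row had a count of 0 in any library. Summed levels of each of the 12 cell type and neighbouring tissue lists overlapped between the groups, though the choroid plexus list had a row for only 1 of its 5 genes. Median log2 changes were largest in the meninges (0.32) and striatum (0.21) lists. By edgeR 0 of 8 and 2 of 7 of their markers had an unadjusted p under 0.05, against 7.17% of all rows. Oligodendrocyte markers summed to 1934 to 2472 CPM after saline and 1932 to 2667 CPM after LPS, and endothelial markers to 500 to 542 and 510 to 543 CPM. Astrocyte markers summed to 3186 to 5675 and 3076 to 6144 CPM, with the glutamate transporter gene Slc1a2 at 3365 CPM or above in Saline 3, LPS 1 and LPS 2 and at 966 CPM or below in the others. Inhibitory neuron markers summed to 620 to 682 and 667 to 734 CPM. Of these, 3 of 7 (Gad2, Lhx6 and Slc32a1, log2 0.27, 0.25 and 0.14) were higher in every LPS library, against 6.84% of all rows. Oligodendrocyte precursor markers summed to 235 to 272 and 266 to 287 CPM. Of these, 3 of 5 had an edgeR p under 0.05 before adjustment, against 7.17% of all rows (Gpr17 0.21, Pdgfra 0.20 and Sox10 -0.16 on the log2 scale). By edgeR 0 markers of any list passed, and the part of these markers in the results below was not tested. Rows named newGene, which have no annotated gene, took 2.51% to 2.93% of counts in saline and 1.61% to 2.03% in LPS libraries. This share separated the groups, and its part in the results below was not tested.

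Levels can be compared between genes only in the authors' FPKM, which is scaled to transcript length. Tsc22d3 was the most abundant member in saline libraries by mean (26.1 ± 2.42 FPKM, SD, n = 3), followed by Sgk1 (24.9 ± 1.75), Ddit4 (22.4 ± 3.43) and Nr3c1 (19.0 ± 1.22). The ranges of neighbours in this order overlapped, while Tsc22d3 and Sgk1 both lay wholly above Nr3c1. Cdkn1a (13.6 ± 1.85 FPKM) and Errfi1 (10.3 ± 1.00) came next and overlapped each other at 11.4 FPKM. Nr3c2 (5.24 ± 0.857), Pdk4 (4.52 ± 0.335) and Fkbp5 (4.12 ± 0.731) formed a lower set with overlapping ranges. Hif3a stood alone at the bottom, at 0.510 to 0.858 FPKM. In LPS libraries Cdkn1a ranged from 18.4 to 20.4 FPKM, above Nr3c1 at 10.3 to 16.5 and Ddit4 at 15.3 to 18.1.

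**Figure D1:**
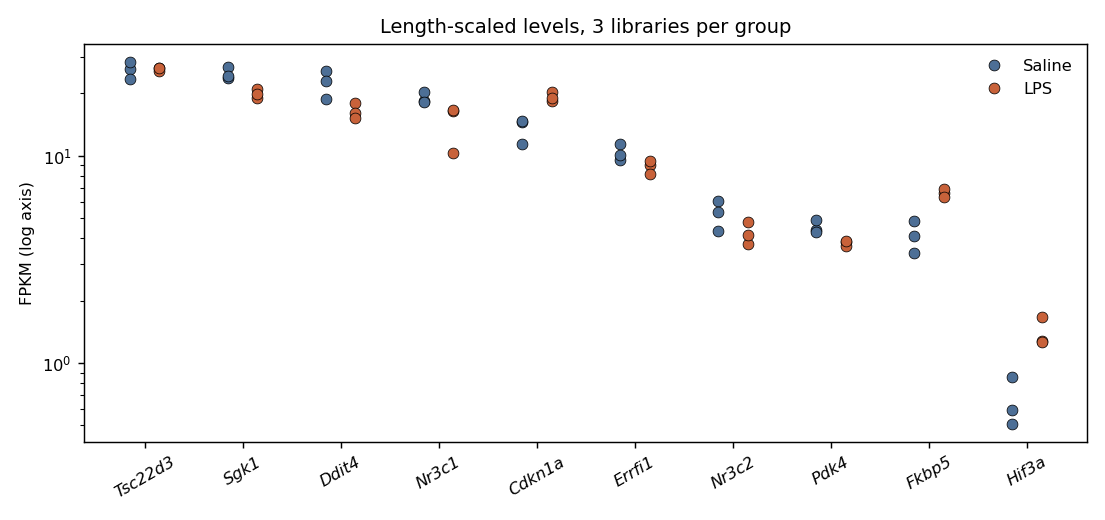
FPKM on a log axis for the 10 genes in the 3 saline (blue) and 3 LPS (orange) libraries, ordered by the saline mean, each point 1 library. The genes span from Hif3a, at 0.510 to 0.858 FPKM in saline, to Tsc22d3, at 23.5 to 28.3 FPKM.

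The receptor and target genes did not all lie on one side. Hif3a, Fkbp5 and Cdkn1a were higher in every LPS library than in every saline library, while Ddit4, Nr3c1, Sgk1, Pdk4 and Errfi1 were lower in every one. Nr3c2 and Tsc22d3 overlapped between the groups. The median log2 change was -0.22 over the 10 members and 0.00 over all 14250 rows, and the median size regardless of sign was 0.32 and 0.08. Groups did not overlap in 8 of 10 members, against 13.7% of all rows (6.84% in each direction).

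By edgeR's quasi-likelihood test with Benjamini-Hochberg adjustment over all rows, 0 of the 10 members passed an adjusted p of 0.05, against 0.288% of all rows (0.0982% higher and 0.189% lower). At an unadjusted p under 0.05, edgeR had 3 members higher and 4 lower, against 7.17% of all rows (3.63% higher and 3.54% lower). DESeq2 called 3 members higher (Fkbp5, Hif3a, Cdkn1a) and 2 lower (Ddit4, Sgk1), against 0.983% of the rows it gave an adjusted p (0.421% higher and 0.562% lower). With limma-voom 0 members passed, against 0.239% of all rows (0.0772% higher and 0.161% lower). Hif3a, Cdkn1a, Ddit4 and Sgk1 each passed in 1 of 15 alternative settings, which was DESeq2. In bulk tissue, fewer cells of a type and less RNA per cell cannot be told apart. No member's exons overlap those of another tested gene in GENCODE M21.

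**Figure D2:**
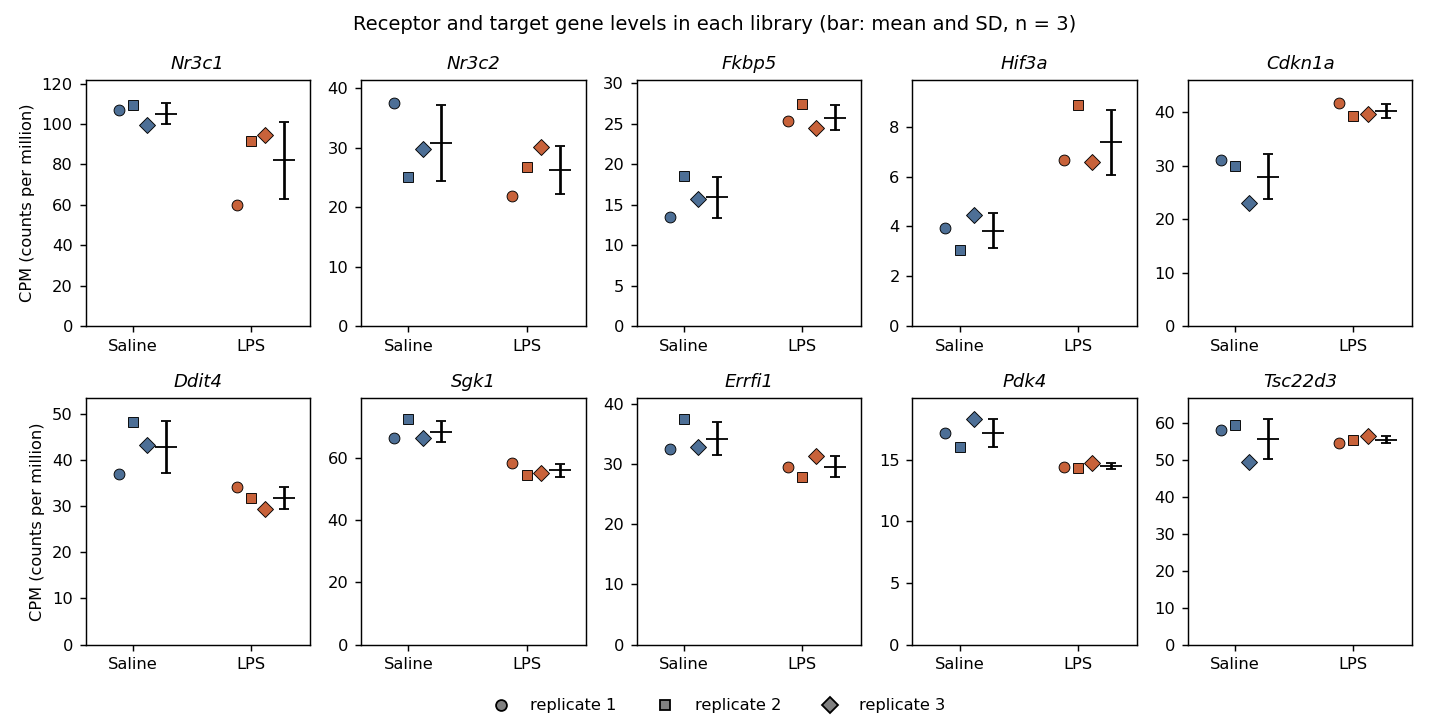
CPM of each gene in each library, with axes from 0, marker shapes for replicate numbers, and the mean and SD (n = 3) beside each group. Fkbp5, Hif3a and Cdkn1a sit higher in all 3 LPS libraries, Ddit4, Sgk1, Errfi1, Pdk4 and Nr3c1 sit lower, and Nr3c1 in LPS 1 lies well under the other LPS libraries.

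Nr3c1 (ENSMUSG00000024431, chromosome 18) codes for the glucocorticoid receptor itself. It had 107, 109 and 99.3 CPM in Saline 1, 2 and 3, and 59.99, 91.4 and 94.7 CPM in LPS 1, 2 and 3. All LPS values were below all saline values, but LPS 2 and LPS 3 lay close under Saline 3 and only LPS 1 was far below. The group means were 105 ± 5.20 and 82.0 ± 19.2 CPM (SD, n = 3 each), a log2 difference of -0.36 (SE 0.183, edgeR adjusted p = 0.761). Without LPS 1 the log2 difference was -0.18 (edgeR adjusted p = 0.626). The SE was then 0.0675. The difference did not pass in any of the 15 alternative settings.

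Nr3c2 (ENSMUSG00000031618, chr8:76899442-77245012) codes for the mineralocorticoid receptor. It had 37.6, 25.1 and 29.7 CPM in Saline 1, 2 and 3, against 21.9, 26.7 and 30.1 CPM in LPS 1, 2 and 3. Saline 1 was the highest and LPS 1 the lowest, and the other 4 libraries were interleaved. The log2 change was -0.23 (SE 0.176, edgeR adjusted p = 0.822), and -0.06 without Saline 1. The spread of Nr3c2 within the saline group, a coefficient of variation of 20.6%, was the widest of the 10 genes there, while that of Nr3c1 was the narrowest at 4.95%.

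The balance of the receptors was taken as the ratio of Nr3c2 to Nr3c1 FPKM within each library, which library size does not affect. It was 0.329, 0.212 and 0.294 in Saline 1, 2 and 3 and 0.365, 0.253 and 0.291 in LPS 1, 2 and 3. The groups overlapped. The mean log2 ratio was -1.87 ± 0.329 in saline and -1.74 ± 0.268 in LPS libraries (SD, n = 3 each, exact two-sided permutation p = 0.7, smallest possible 0.1). LPS 1 was lowest in both receptor transcripts and had the highest ratio.

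Fkbp5 (ENSMUSG00000024222, chr17:28399094-28517527), the co-chaperone gene of the feedback loop, was the member with the smallest p. It had 13.5, 18.5 and 15.6 CPM in Saline 1, 2 and 3 and 25.3, 27.5 and 24.5 CPM in LPS 1, 2 and 3. The LPS libraries were close together and lay above the highest saline library, Saline 2. Means were 15.9 ± 2.51 and 25.7 ± 1.55 CPM (SD, n = 3 each), a fold of 1.62, and the gene ranked 45 of 14250 by p. The log2 change of 0.70 (SE 0.117) just missed the threshold (edgeR adjusted p = 0.0568). Fkbp5 passed in 2 of 15 alternatives, which were edgeR without Saline 2 (log2 0.82, adjusted p = 0.0190) and DESeq2 (adjusted p = 3.96e-05). It did not pass in the others, among them limma-voom (adjusted p = 0.110) and limma on FPKM (adjusted p = 0.210).

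Fkbp4 codes for FKBP52, the relative that replaces FKBP51 in the receptor complex when hormone binds. Its groups overlapped, at 94.2 to 104 CPM after saline and 94.4 to 98.2 CPM after LPS (log2 -0.04, SE 0.0574, edgeR adjusted p = 0.897). The FPKM ratio of Fkbp5 to Fkbp4 was 0.0813, 0.117 and 0.103 in Saline 1, 2 and 3, against 0.161, 0.182 and 0.161 in LPS 1, 2 and 3. Every LPS library was above every saline library. The ratio was 1.69-fold higher in LPS mice, with log2 means of -3.33 ± 0.268 and -2.58 ± 0.102 (SD, n = 3 each, exact two-sided permutation p = 0.1). That is the smallest p that 3 mice against 3 can give.

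**Figure D3:**
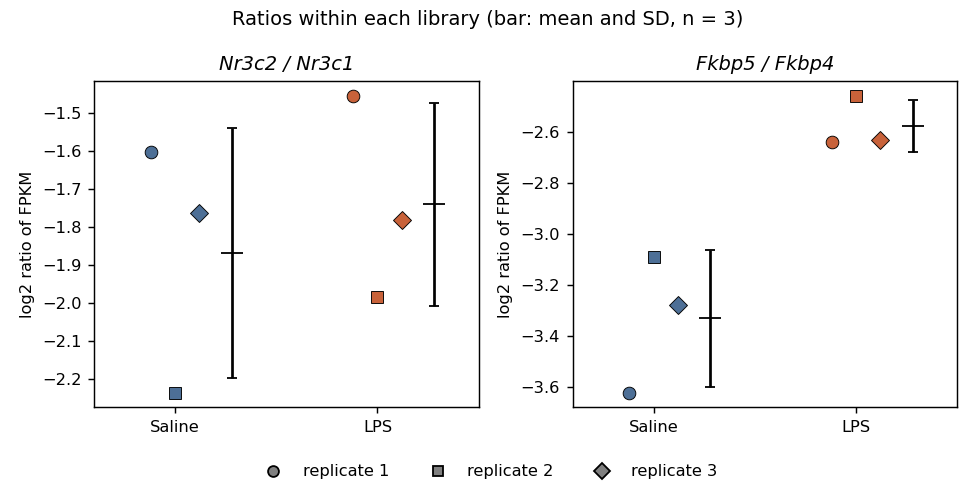
Log2 ratio of FPKM within each library for Nr3c2 over Nr3c1 (left) and Fkbp5 over Fkbp4 (right), each point 1 mouse, with the mean and SD (n = 3). The receptor ratio overlaps between groups, and the co-chaperone ratio does not, with saline at -3.62 to -3.09 and LPS at -2.64 to -2.46.

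Hif3a (ENSMUSG00000004328, chr7:17031507-17062427) codes for the third hypoxia-inducible factor alpha subunit, of which some forms inhibit the others. It was the least abundant member and had the largest log2 change of the 10. Saline 1, 2 and 3 held 150, 123 and 170 counts, and LPS 1, 2 and 3 held 280, 359 and 240, or 3.07 to 4.47 and 6.57 to 8.87 CPM. LPS 2 was the highest and Saline 2 the lowest, with a clear gap between the groups. The fold was 1.93 (log2 0.95, SE 0.184, edgeR adjusted p = 0.110, DESeq2 adjusted p = 0.00113).

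Hif3a was also the member whose FPKM and counts diverged most. Its FPKM per count was divided by its mean over the libraries and then by the median over genes in each library. This value was 0.865, 0.907 and 1.045 in Saline 1, 2 and 3, and 1.045, 1.07 and 1.07 in LPS 1, 2 and 3. Its range among libraries was 23.7%, and Saline 3 lay level with LPS 1. In 6 other members, Fkbp5, Cdkn1a, Ddit4, Pdk4, Errfi1 and Tsc22d3, this range was 2.02% or less. It was 3.46% for Sgk1, 9.86% for Nr3c1 and 10.8% for Nr3c2. In FPKM the groups were also apart, at 0.510 to 0.858 in saline and 1.26 to 1.67 in LPS libraries. Mean FPKM was 0.654 ± 0.182 and 1.40 ± 0.230 (SD, n = 3 each). The log2 difference of FPKM + 1 was 0.54, and adding 1 to values this low makes it smaller than that of FPKM itself.

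Cdkn1a (ENSMUSG00000023067, chr17:29090976-29100727) codes for p21, an inhibitor of cyclin-dependent kinases that p53 and glucocorticoids both induce. It had 31.0, 29.9 and 23.1 CPM in Saline 1, 2 and 3, against 41.7, 39.3 and 39.7 CPM in LPS 1, 2 and 3. The LPS values were tightly grouped, and Saline 3 was lower than the other saline libraries. Means of 27.97 ± 4.28 and 40.2 ± 1.32 CPM (SD, n = 3 each) gave a fold of 1.44 (log2 0.52, SE 0.108, edgeR adjusted p = 0.139, DESeq2 adjusted p = 0.00256). Without Saline 3 the change was 0.40, its lowest value among the fits that left out 1 library.

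Ddit4 (ENSMUSG00000020108, chr10:59949669-59951834) codes for REDD1, a stress-induced inhibitor of the growth kinase complex mTORC1. It had 36.9, 48.2 and 43.3 CPM in Saline 1, 2 and 3 and 34.0, 31.8 and 29.3 CPM in LPS 1, 2 and 3. Saline 1 and LPS 1 lay close together, so the gap between the groups was small beside the spread of the saline libraries. The log2 change was -0.43 (SE 0.104, edgeR adjusted p = 0.255, DESeq2 adjusted p = 0.0259), the most negative of the 10.

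Sgk1 (ENSMUSG00000019970, chr10:21882184-21999903) codes for a kinase of ion channels and transporters that both receptors and growth factors induce, and it carries the inverted repeat printed above. It had 66.4, 72.5 and 66.6 CPM in Saline 1, 2 and 3, against 58.5, 54.4 and 55.1 CPM in LPS 1, 2 and 3. The spread within groups was small, with coefficients of variation of 5.04% and 3.95%. The fold was 0.818 (log2 -0.29, SE 0.0627, edgeR adjusted p = 0.169, DESeq2 adjusted p = 0.0418). Sgk1 and Fkbp5 are both commonly used as readouts of the receptor, and here they lay on opposite sides of 0.

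Errfi1 (ENSMUSG00000028967, chr4:150853919-150868892) codes for MIG6, an inhibitor of the EGF receptor. It had 32.5, 37.5 and 32.9 CPM in Saline 1, 2 and 3, against 29.6, 27.8 and 31.3 CPM in LPS 1, 2 and 3. LPS 3 came within about 1 CPM of Saline 1 (log2 -0.21, SE 0.0841, edgeR adjusted p = 0.643). Pdk4 (ENSMUSG00000019577, chr6:5483351-5496309) codes for a kinase that shuts down pyruvate dehydrogenase and so saves glucose. It had 17.2, 16.0 and 18.3 CPM in Saline 1, 2 and 3, against 14.4, 14.4 and 14.8 CPM in LPS 1, 2 and 3, where the spread was very small (log2 -0.24, SE 0.0882, edgeR adjusted p = 0.576). Neither gene was called by DESeq2, with adjusted p of 0.680 and 0.634.

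Tsc22d3 (ENSMUSG00000031431, chrX:140539528-140600659) codes for GILZ, a leucine zipper protein through which glucocorticoids restrain inflammatory signalling. It had 58.1, 59.4 and 49.3 CPM in Saline 1, 2 and 3, against 54.5, 55.4 and 56.3 CPM in LPS 1, 2 and 3. The LPS values lay inside the saline range. Means were 55.6 ± 5.51 and 55.4 ± 0.880 CPM (SD, n = 3 each), and the log2 change was 0.00 to 2 decimals (SE 0.0776, edgeR adjusted p = 0.996). Its sign turned in 5 of the 15 alternative settings. Log2 differences within 1 SE of the estimate span -0.08 to 0.07.

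**Figure D4:**
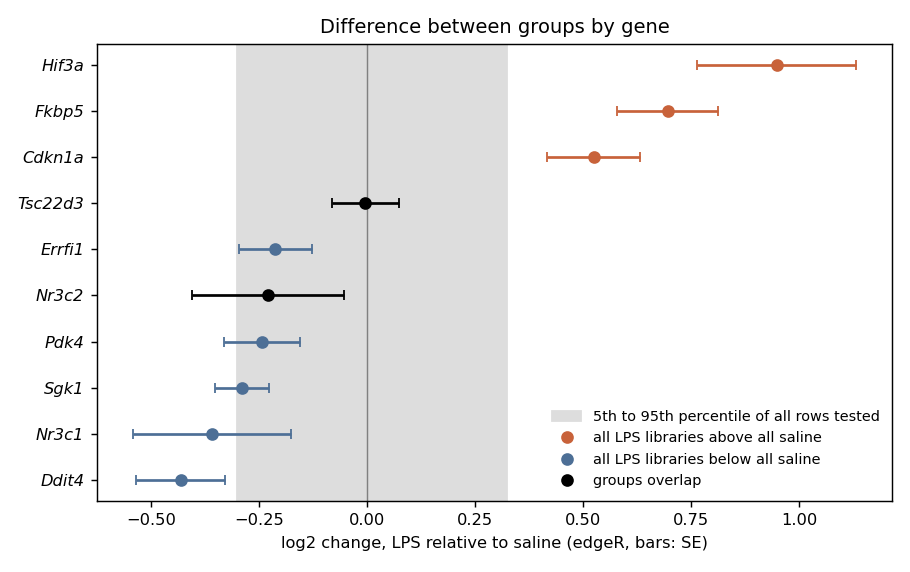
Log2 change between LPS and saline from edgeR with its SE for each gene (orange: all LPS libraries above all saline, blue: all below, black: groups overlap), over a grey band from the 5th to the 95th percentile (-0.30 to 0.32) of all 14250 rows. Hif3a, Fkbp5 and Cdkn1a lie above the band, Ddit4 and Nr3c1 below it, and the other 5 estimates inside it.

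Among a further 31 glucocorticoid target genes with a row, log2 changes lay on both sides of 0 but were more often positive, unlike those of the members. By edgeR 2 fell and 0 rose, against 0.189% and 0.0982% of all rows. At an unadjusted p under 0.05, 8 were higher and 4 lower, against 3.63% and 3.54%. Of these 31 genes, 22 had a positive log2 change, against 3 of the 10 members and 7186 of all 14250 rows. The median was 0.10, against -0.22 for the members and 0.00 for all rows. Every LPS library was above every saline library in 10 of them and below in 3, where 6.84% of all rows did so in each direction. In DESeq2 2 passed as higher and 2 as lower, against 0.421% and 0.562% of rows, and in limma-voom 1 passed, against 0.239%.

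The 2 genes that fell were Dusp1 and Tiparp, which are also early response genes of neuronal activity and growth factors. Dusp1, a MAP kinase phosphatase gene, had 101 to 116 CPM after saline and 22.7 to 35.6 CPM after LPS (log2 -1.86, SE 0.171, edgeR adjusted p = 0.0192). Its exons overlap those of Ergic1 on the other strand, so its reads are uncertain. Without Saline 1, Saline 2, Saline 3 or LPS 1, its edgeR adjusted p was 0.0754 to 0.132, with log2 changes of -1.90 to -1.80. Dusp1 passed in the other 11 of 15 alternatives, among them limma-voom (adjusted p = 0.00313) and DESeq2 (adjusted p = 3.72e-37). Tiparp, which codes for an ADP-ribosyltransferase, had 23.6 to 34.8 CPM after saline and 14.6 to 15.1 CPM after LPS (log2 -1.01, SE 0.132, edgeR adjusted p = 0.0163). Without Saline 2, LPS 1, LPS 2 or LPS 3, its edgeR adjusted p was 0.0717 to 0.116, with log2 changes of -1.03 to -0.98. Tiparp passed in 7 of 15 alternatives, among them DESeq2 (adjusted p = 1.04e-09) but not limma-voom (adjusted p = 0.0809).

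Other genes of this list did not pass in edgeR. Map3k6, a stress kinase gene, had 3.73 to 4.75 CPM after saline and 6.41 to 6.72 CPM after LPS (log2 0.63, SE 0.139, edgeR adjusted p = 0.181). Klf15, a metabolic transcription factor gene that the receptor induces directly, had 19.3 to 22.6 and 26.2 to 31.4 CPM (log2 0.41, SE 0.0969, edgeR adjusted p = 0.245). DESeq2 called both. Log2 changes were 0.35 for the transcription factor gene Zbtb16 and 0.26 for the metallothionein gene Mt2, each higher in all 3 LPS libraries, but 0.11 for Mt1, whose groups overlapped. Sult1a1 (0.58), Bcl6 (0.29), Mfsd2a (0.27) and Cables1 (0.21) were also higher in every LPS library, and Cebpd (-0.58), an inflammation-linked transcription factor gene, was lower in every one.

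Among widely used target genes, Klf9, Nfkbia and Fam107a had small differences, while the log2 change of Per1 lay below the 5th percentile of all rows (-0.30). Klf9 had 167 to 192 CPM after saline and 190 to 198 CPM after LPS (log2 0.09, SE 0.0654), Nfkbia, the NF-kB inhibitor gene, a log2 change of -0.07 (SE 0.114), and Fam107a, an actin-binding stress gene, 0.01 (SE 0.0764). Per1, a clock gene with a receptor site in its promoter, had 188, 183 and 128 CPM in Saline 1, 2 and 3 and 116, 133 and 132 CPM in LPS 1, 2 and 3. Saline 3 lay among the LPS libraries (log2 -0.39, SE 0.156, edgeR adjusted p = 0.696). Without it, Per1 passed (log2 -0.55, edgeR adjusted p = 0.0193), so its call depends on 1 library.

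Genes that hold, carry or activate the receptor had small log2 changes. In the receptor complex list, 0 of 18 passed in any of edgeR, DESeq2 and limma-voom. By edgeR 1 of 18 lay under an unadjusted p of 0.05, a share near the 7.17% of all rows, and log2 changes ran from -0.27 to 0.09 with a median of -0.06. That gene was Tnpo3, an importin gene whose exons overlap Irf5 on the other strand (log2 -0.27, SE 0.0885, edgeR adjusted p = 0.506). Log2 changes were -0.21 for Dnajb1, -0.13 for the HSP90 gene Hsp90aa1 and 0.09 for Stub1, which overlaps Jmjd8. Of the 16 coregulator genes, 0 passed in these tools. By edgeR 1 of 16 had an unadjusted p under 0.05, also a share near the 7.17% of all rows. This was Hexim1, which codes for an inhibitor of transcription elongation that binds the receptor, with 58.6 to 60.02 CPM after saline and 47.5 to 53.3 CPM after LPS (log2 -0.23, SE 0.0631, edgeR adjusted p = 0.378). Log2 changes of Carm1, which overlaps Yipf2, Crebbp and Hdac6 were 0.11, 0.15 and 0.09.

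Hormone supply to the tissue was covered by 7 of 10 listed genes, of which 0 passed in any of these tools. By edgeR 1 of the 7 lay under an unadjusted p of 0.05, against 7.17% of all rows. Hsd11b1, which regenerates active corticosterone inside cells, had 14.7 to 18.8 CPM after saline and 13.1 to 17.6 CPM after LPS (log2 -0.16, SE 0.135, edgeR adjusted p = 0.833). Srd5a1, which reduces steroids, had 10.7 to 12.4 and 12.9 to 13.4 CPM (log2 0.22, SE 0.0974, edgeR adjusted p = 0.696). The efflux pump genes Abcb1b and Abcg2 had log2 changes of -0.20 and 0.08. In the hormone axis list 4 of 9 genes had a row, and 0 passed in these tools or had an unadjusted p under 0.05. Log2 changes were 0.09 for Crh (SE 0.135), the gene of corticotropin-releasing hormone, 0.21 for Crhbp (SE 0.108), 0.07 for Crhr1 (SE 0.113) and 0.30 for Crhr2 (SE 0.348).

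Cdkn1a, Ddit4 and Hif3a also answer to p53 or low oxygen, so other genes of those responses were listed beside them. Among 14 p53 target genes with a row, 0 passed in edgeR, with 3 lower and 0 higher at an unadjusted p below 0.05, against 3.54% and 3.63% of all rows. Of these 14 genes, 7 had a positive and 7 a negative log2 change, and the median was 0.00. DESeq2 called 3 lower, against 0.562% of rows, and limma-voom called 1, against 0.239%. Cdkn1a, higher in LPS mice, was opposite in sign to Btg2 (log2 -1.89, SE 0.302, edgeR adjusted p = 0.212), Plk2 (-0.35, SE 0.0580, 0.0526) and Ccng1 (-0.32, SE 0.0707, 0.177). Btg2 and Plk2 are also neuronal activity genes. Btg2 passed in 5 of 15 alternatives, which were DESeq2 (adjusted p = 1.49e-06), limma-voom (0.0208), limma after quantile scaling (0.0381), limma on FPKM (0.0234) and edgeR without LPS 2 (3.48e-04). Plk2 passed in 3 of 15, which were DESeq2 (adjusted p = 2.54e-04), limma after quantile scaling (0.0457) and edgeR without Saline 3 (0.0384). Trp53inp1 had a log2 change of 0.20.

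Hypoxia genes had small differences. By edgeR, DESeq2 and limma-voom 0 of 14 passed. By edgeR 1 of 14 had an unadjusted p under 0.05, a share near the 7.17% of all rows. Log2 changes ran from -0.25 to 0.14 with a median of 0.04. Vegfa, an angiogenic factor gene, had 57.9 to 60.9 CPM after saline and 61.7 to 72.8 CPM after LPS (log2 0.14, SE 0.0733, edgeR adjusted p = 0.755). Pfkfb3, a glycolysis gene, had a log2 change of -0.25, Pdk1, a relative of Pdk4, -0.15, and Egln1, an oxygen sensor gene, 0.12.

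**Figure D5:**
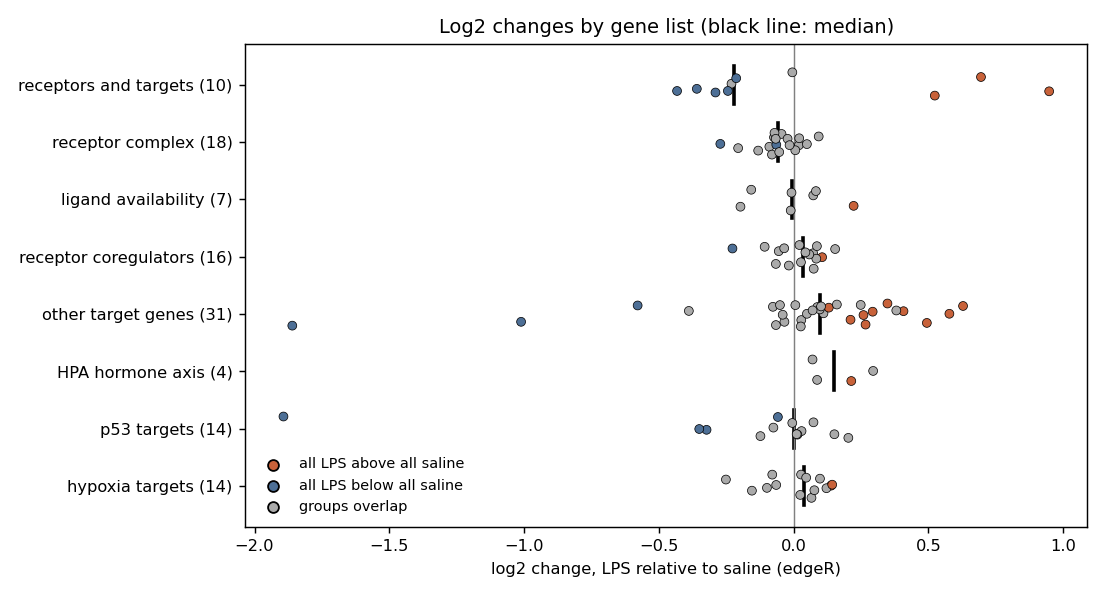
Log2 change of each gene (1 point per gene, orange where all LPS libraries lie above all saline, blue where below, grey where groups overlap) in the 10 receptor and target genes and in 7 lists of related genes, with the number measured in brackets and a black line at each median. Changes in the receptor complex and coregulator lists stay between -0.27 and 0.15, while the 31 other target genes run from -1.86 to 0.63.

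The genes whose profiles over the 6 libraries were most like those of Fkbp5 and Sgk1 were found among 11100 other annotated genes with a mean of at least 5 CPM. For Fkbp5 these were Btaf1 (Pearson's r 0.983 across 6 libraries), Muc3a (0.982), Stard13 (0.982), Arhgap27 (0.980) and Fgfbp3 (0.978). All 5 had positive log2 changes, from 0.16 to 0.57. Btaf1, which codes for a regulator of the TATA-binding protein, was called higher (log2 0.54, edgeR adjusted p = 0.0499). The log2 change of Fgfbp3 was close to it at 0.53 (edgeR adjusted p = 0.211). Whether the mice differed in the copy number of any of these genes was not tested. For Sgk1 they were Dusp16 (0.997), Ppm1k (0.995), Il11ra1 (0.993), Cbwd1 (0.985) and Cep290 (0.982), with log2 changes from -0.35 to -0.07. Exons of Il11ra1 and Cep290 overlap those of other tested genes on the opposite strand. The 6 points share the treatment contrast and the library scaling, and with so few points these values only describe likeness.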

How the data were processed

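The authors deposited raw read counts per gene and, beside them, FPKM values for 6 libraries, per the file headers. The submitters' processing notes name TopHat2 2.1, DESeq 1.10.1 and genome build GRCm38, without roles. The counting program and any strand setting were not given in the sources used here.

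Counts were tested with edgeR 4.0.16 in R 4.3.3 (robust quasi-likelihood test, TMM factors, treatment as the only term), with Benjamini-Hochberg adjustment over 14250 rows and a threshold of 0.05. A low-count filter removed 0 rows. Each SE was derived from the fitted log2 change and its F statistic. Ratios of FPKM were compared by exact permutation. Positions come from GENCODE M21 and promoters from RefSeq (GRCm38.p6). The edgeR step was tested on simulated data. Alternatives were DESeq2 1.42.0, limma 3.58.1 (voom, quantile scaling, and FPKM + 1 on the log2 scale with mean FPKM of 0.5 or more), RLE factors, sva 3.50.0, filters, thresholds, the replicate number as a block and leaving out each library.

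The members and lists were chosen with earlier results of these data known. Other genes named were a fixed panel of 10, the 4 with the smallest p per list and the 5 most like Fkbp5 or Sgk1. Fam107a, Sult1a1, Bcl6, Mfsd2a, Cables1, Cebpd and Slc1a2 were chosen after their values were seen. Each library came from 1 mouse, so p-values measure the spread between these mice. Sex and litter, and which mice shared a cage, were not stated.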

Additional observations from a re-analysis of the deposited data

How the results depend on the processing

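Counts of calls depended most on the tool. With DESeq2 they were 60 higher and 80 lower over all rows (edgeR 14 and 27), 3 and 2 members (edgeR 0 and 0), and 2 and 5 of the other pathway genes (edgeR 0 and 2). Over all rows 8 were higher with limma on FPKM, 23 at an adjusted p of 0.1 and 9 at 1.5-fold or more. At 0.1, 1 member was higher. With 1 surrogate variable, 1 other pathway gene was lower. Leaving out 1 library gave 0 to 1 members higher, with 1 only without Saline 2, and 0 to 3 other pathway genes lower, with 0 without Saline 2 or LPS 1. Over all rows the same fits gave 14 to 20 higher and 22 to 35 lower, with 20 and 23 without Saline 2. Leaving out 1 library moved the Nr3c2 to Nr3c1 log2 ratio difference over -0.057 to 0.26, and it was negative without Saline 2 (-0.057) and without LPS 1 (-0.016). The log2 change of Tsc22d3 turned positive with the replicate block (0.00) and with FPKM (0.0096), and spanned -0.084 to 0.045 over the libraries left out, positive without Saline 1, Saline 2 or LPS 1. That of Crhr1 spanned -0.034 to 0.15, negative without Saline 3 or LPS 3, and that of Nfkbia -0.13 to 0.055, positive without Saline 2 or LPS 3. The other 9 members kept their sign in all 15 alternatives each. Deviations from the group mean had correlations of -0.027, 0.025 and 0.042 between saline and LPS libraries with the same number. For different numbers they were -0.060 to 0.035. Deviations within a group sum to 0, which ties these values together, so they cannot show whether the numbers pair mice. With the replicate block 10 rows were higher and 21 lower, with 0 members called. The cause of these shifts was not tested. Among the members Hif3a had the fewest counts, 123 to 359 a library.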
